A study of Capra hircus with 3 samples.

Results

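The circadian clock is a feedback loop of transcription and translation that runs in the brain and in most peripheral cells, including those of skin and hair follicles. In its positive arm, CLOCK or its relative NPAS2 pairs with BMAL1 (also named ARNTL) and switches on the genes of the negative arm, PER, CRY and NR1D, whose products repress the positive arm in turn. Casein kinases delta and epsilon phosphorylate the PER proteins and so help to set the pace of the loop, and DBP is a transcription factor through which the loop drives output genes. The transcripts of several of these genes swing strongly over the day, so that a single sample gives the level at 1 hour only.

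Circadian clock genes in goat skin were taken as the array probes whose gene name was CLOCK, ARNTL, BMAL1, NPAS2, CRY1, CRY2, PER1, PER2, PER3, NR1D1, NR1D2, DBP, CSNK1D or CSNK1E, or whose description spoke of circadian genes, cryptochromes or period homologs. This gave 9 of the 15008 probes that were not controls. They belonged to 6 genes under the 14 names searched, where the whole array carries 14363 sheep identifiers, with 2 probes each for CRY1, PER2 and CSNK1E and 1 probe each for CLOCK, DBP and CSNK1D. For ARNTL, BMAL1, NPAS2, CRY2, PER1, PER3, NR1D1 and NR1D2, 0 probes were found, so CLOCK alone stood for the positive arm, and PER2 and CRY1 for the negative arm. Of the 6 symbols, 5 were listed in the goat RefSeq gene table of assembly ARS1.2, and CSNK1E is named as on the array.

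Skin was taken in July from 6 female Arbas Cashmere goats aged 2 years, 3 under a short photoperiod and 3 under the natural photoperiod. The short photoperiod was made by limiting daylight to the hours between 9:30 and 16:30, the time at pasture, with darkness of about 0.1 lux indoors. These goats were also fed and given water within those hours only, and their shed was slightly colder than outside. The natural group grazed under natural conditions, and its day was not shortened. The paper states that only the photoperiod differed between the groups. The part of feeding hours or temperature in the ratios was not tested. Each of 3 Agilent sheep arrays carried the RNA of 1 short photoperiod goat in Cy5 and of 1 natural photoperiod goat of the same parent in Cy3, and is called replicate 1, 2 or 3. The question was whether transcript levels in skin differ between the photoperiods. The hour at which skin was taken was not given in the sources used here, so a change in the mean level of a clock gene and a shift in the timing of its rhythm cannot be told apart. The dyes were swapped on 0 arrays, and a dye bias of a probe cannot be told apart from a difference between the groups either.

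Outside the controls, the spots of replicates 1, 2 and 3 had a median Cy5 intensity of 4587, 6436 and 7120, and a median Cy3 intensity of 2688, 3668 and 3911. Each of the 9 clock probes passed the scanner software's criterion of being well above background, in Cy5 and in Cy3 alike, on every array, and 0 of their spots had an outlier flag or was saturated. Their intensity was at least 7.89 times the local background, the smallest value being that of CLOCK in Cy3. Levels are given as log2 intensities after loess within arrays and Aquantile normalization between them, and ratios as the log2 ratio of short over natural photoperiod, so that a ratio above 0 is a higher level in the goat of the short photoperiod. In the spike-in controls read out by the scanner software, the slope of observed on added log ratios was 0.629, 0.628 and 0.622, where a slope of 1 would be an unshrunken ratio. The 2 goats of an array were read on the same spots. A level shared by such a pair therefore cannot be told apart from an effect of the spot or array. Precision is limited throughout by the small number of arrays.

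For none of the 9 clock probes was a difference between the photoperiods detected beyond the spread over arrays. With limma, 0 of 9 had an adjusted p under 0.05, against 0.00668% of the 14977 probes tested, and 0 of 9 had an unadjusted p under 0.05, against 18.5%. The fit of the separate channels and eBayes with trend and robust also called 0 of 9 after adjustment. Over the array they called 161 of 14868 and 0 of 14977 probes. A mean change of at least 2-fold was found for 0 of 9 probes, against 0.855% of all tested probes. The same direction on all 3 arrays was seen for 2 of 9 probes, CLOCK and CSNK1D, both higher under the short photoperiod, against 43.6% of the probes with 3 ratios. The levels of the 3 short and the 3 natural goats did not overlap for 0 of 9 probes, against 13.6%. The adjusted p of the 9 probes lay between 0.279 and 0.736, and each of their 95% intervals lay within a 2-fold change in either direction. These are intervals of the measured ratios, with no correction for the slope of the spike-in controls.

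**Figure D1:**
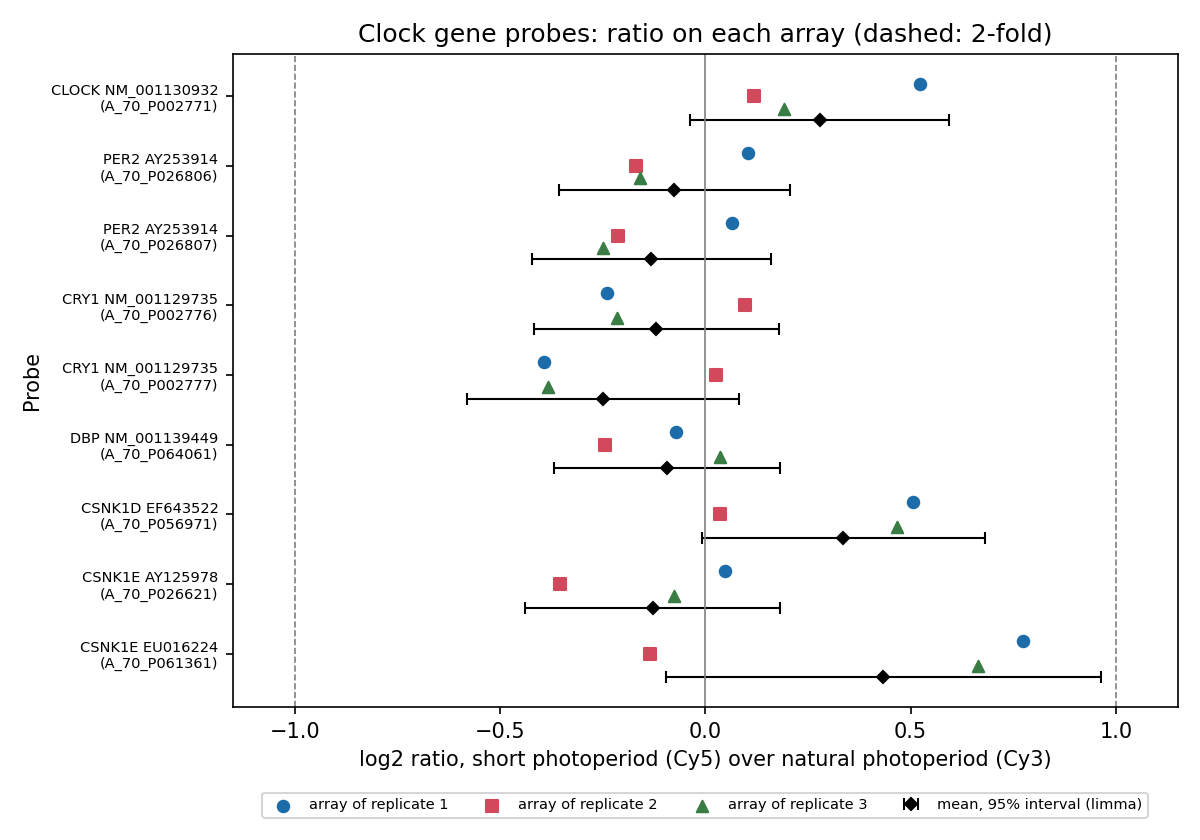
Log2 ratio of short over natural photoperiod for each of the 9 clock probes (rows), with 1 symbol for each array and, below the symbols, the mean with its 95% interval from limma (black diamond and bar). Dashed lines mark a 2-fold change; the ratios lie between -0.39 and 0.77, and every interval includes 0.

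CLOCK, the DNA-binding partner of BMAL1 in the positive arm, had levels of 8.98, 9.01 and 9.18 in the short photoperiod goats of replicates 1, 2 and 3. Its levels in the natural photoperiod goats were 8.46, 8.89 and 8.98. The short photoperiod goat was the higher of the pair on every array, but the groups met at 8.98, the natural goat of replicate 3 lying at the level of the short photoperiod goat of replicate 1. The low value of the natural goat of replicate 1 gave the widest gap. The log2 ratio of CLOCK was 0.52, 0.12 and 0.19, with a mean of 0.28 ± 0.21 (SD, 3 arrays) and a 95% interval from -0.04 to 0.59. This is a fold of 1.21, and limma gave it an adjusted p of 0.309. Of all tested probes, 86.9% had a lower mean ratio. Without replicate 1 the mean of CLOCK was 0.16, and with each array centred on its median in place of loess it was 0.08, and the lowest and highest of 12 alternatives were 0.08 and 0.36.

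PER2, a repressor of the negative arm whose transcript follows the time of day and, in the brain, responds to light, was read by 2 probes. Probe A_70_P026806 had levels of 9.45, 9.55 and 9.53 in the short photoperiod goats and of 9.34, 9.71 and 9.69 in the natural goats. With A_70_P026807 the levels were 9.70, 9.97 and 9.33 in the short photoperiod goats and 9.63, 10.18 and 9.58 in the natural goats. By both probes PER2 was slightly higher in the short photoperiod goat of replicate 1 and lower in those of replicates 2 and 3, and the groups overlapped. The ratios were 0.10, -0.17 and -0.16 for the first probe, with a mean of -0.07 ± 0.15 (SD, 3 arrays), a 95% interval from -0.36 to 0.21 and an adjusted p of 0.736 from limma. They were 0.07, -0.21 and -0.25 for the second, with a mean of -0.13 ± 0.17, an interval from -0.42 to 0.16 and an adjusted p of 0.564. Leaving out each array in turn gave means between -0.16 and -0.03 for the first PER2 probe and between -0.23 and -0.07 for the second, the lowest being those without replicate 1. With median centring in place of loess the PER2 means were -0.23 and -0.28.

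The PER2 probes are shown because they are nearly a single sequence and so act as a repeated reading of the same transcript. Both come from the sheep record AY253914, a partial coding sequence, and the capitals mark the 59 bases that they share.
A_70_P026806: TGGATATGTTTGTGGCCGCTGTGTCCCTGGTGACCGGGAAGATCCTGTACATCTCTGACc
A_70_P026807: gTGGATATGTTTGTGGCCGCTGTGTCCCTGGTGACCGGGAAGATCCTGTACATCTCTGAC
The ratios of the PER2 probes differed by 0.04, 0.04 and 0.09 on replicates 1, 2 and 3, less than the spread of either probe over the arrays. Their levels lay further apart, at 9.45, 9.55 and 9.53 against 9.70, 9.97 and 9.33 in the short photoperiod goats. Levels are thus less repeatable across arrays than ratios for this pair of probes. For comparison, the 50 probes of the array printed on several spots had a median SD between spots of 0.06, 0.05 and 0.06 in the log2 ratio.

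CRY1, a cryptochrome that represses CLOCK and BMAL1 together with the PER proteins, was also read by 2 probes. With A_70_P002776 the levels were 9.11, 9.48 and 9.35 in the short photoperiod goats and 9.34, 9.39 and 9.56 in the natural goats. Probe A_70_P002777 gave 8.23, 9.28 and 8.72 in the short photoperiod goats and 8.62, 9.25 and 9.10 in the natural goats. CRY1 was lower in the short photoperiod goat of replicates 1 and 3 and slightly higher in that of replicate 2 by both probes, again with overlapping groups. The ratios of the first probe were -0.24, 0.10 and -0.21, with a mean of -0.12 ± 0.19 (SD, 3 arrays), a 95% interval from -0.42 to 0.18 and an adjusted p of 0.609 from limma. Those of the second probe were -0.39, 0.03 and -0.38, with a mean of -0.25 ± 0.24, an interval from -0.58 to 0.08 and an adjusted p of 0.362. Without replicate 2 the means of the CRY1 probes were -0.23 and -0.39, without replicate 1 they were -0.06 and -0.18, and without replicate 3 they were -0.07 and -0.18. With median centring in place of loess they were -0.29 and -0.46, the latter with an adjusted p of 0.0896 from limma. That setting called 1885 of all 14977 tested probes, in place of 1 with loess. For A_70_P002777 the adjusted p ranged from 0.0896 to 0.663 over 12 alternatives.

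The CRY1 probes overlap in part, and the capitals mark their shared 29 bases, which end A_70_P002777 and begin A_70_P002776.
A_70_P002777: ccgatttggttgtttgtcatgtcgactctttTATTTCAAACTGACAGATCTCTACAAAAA
A_70_P002776: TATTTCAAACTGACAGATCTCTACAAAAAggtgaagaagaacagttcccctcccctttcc
The ratio of A_70_P002776 exceeded that of A_70_P002777 by 0.15, 0.07 and 0.17 on the arrays, a mean of 0.13 ± 0.05, so the probes kept the same order on every array while both placed replicate 2 apart from replicates 1 and 3. PER2 and CRY1 did not share that order of arrays, since PER2 was higher under the short photoperiod on replicate 1 only and CRY1 on replicate 2 only. Over both PER2 probes the gene mean of the ratio was 0.08, -0.19 and -0.20, and over both CRY1 probes it was -0.31, 0.06 and -0.30.

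To set the positive arm against the negative arm, the probes of a gene were averaged first and then the genes of an arm. The positive arm, CLOCK, had ratios of 0.52, 0.12 and 0.19, and the negative arm, the mean of PER2 and CRY1, had ratios of -0.12, -0.06 and -0.25 with a mean of -0.14 ± 0.10 (SD, 3 arrays). The positive arm therefore lay above the negative arm on each of the 3 arrays, by 0.64, 0.18 and 0.44, a mean of 0.42 ± 0.23. No test was run on this difference, which is given as a description, since a sign test over 3 arrays cannot give a p under 0.25. Neither gene of the negative arm was below 0 on every array, with PER2 at 0.08 on replicate 1 and CRY1 at 0.06 on replicate 2. On replicate 2 CLOCK, at 0.12, lay close to CRY1. The gap rests on 1 probe in the positive arm and 4 in the negative arm. Under 11 alternatives, all drawn from the same 3 arrays, the gap lay between 0.31 and 0.54. The placing of both arms against 0 was less firm, as the positive arm ranged from 0.08 to 0.36 and the negative arm from -0.31 to -0.09.

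DBP, a D-box binding transcription factor whose gene is a direct target of CLOCK and BMAL1, had levels of 14.69, 14.31 and 14.28 in the short photoperiod goats. In the natural goats the levels of DBP were 14.76, 14.55 and 14.25. The DBP level was highest on replicate 1 in both groups and lowest on replicate 3. The spread between arrays in either group was thus wider than the gap within any pair. Both goats of a pair share 1 spot, so a difference between pairs of goats cannot be told apart from one between spots or arrays. The ratio was -0.07, -0.24 and 0.03, with a mean of -0.09 ± 0.14 (SD, 3 arrays), a 95% interval from -0.37 to 0.18 and an adjusted p of 0.662 from limma. Among the 9 probes DBP had the smallest SD of the ratio. The mean of DBP was -0.10, -0.02 and -0.16 without replicate 1, 2 and 3. With median centring in place of loess it turned to 0.24, and the cause was not tested.

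**Figure D2:**
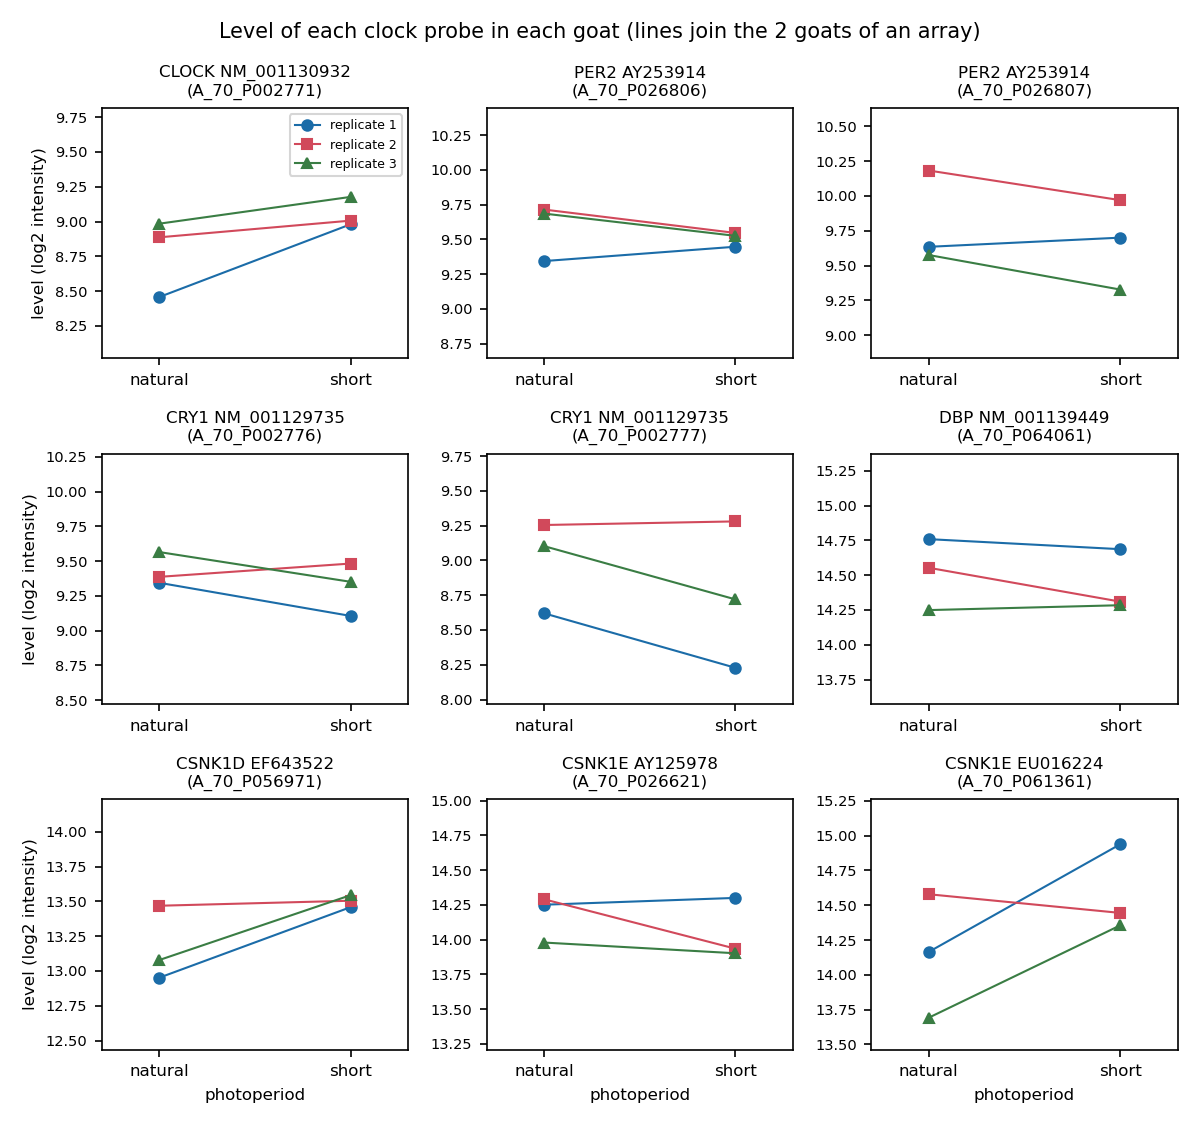
Level (log2 intensity, normalized) of each of the 9 clock probes in the 3 natural and the 3 short photoperiod goats, with a line for each array joining its pair of goats. Every panel spans 1.8 log2 units around its own mean; the lines of CLOCK and CSNK1D rise on all 3 arrays, and the groups overlap in every panel.

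CSNK1D, casein kinase delta, which phosphorylates PER proteins and marks them for degradation, had levels of 13.46, 13.51 and 13.55 in the short photoperiod goats. Its levels were 12.95, 13.47 and 13.08 in the natural goats. The short photoperiod goats lay close together, with an SD of 0.04, and the natural goats further apart, with an SD of 0.27, and the groups overlapped only through the natural goat of replicate 2, at 13.47. The ratio was 0.51, 0.04 and 0.47, with a mean of 0.34 ± 0.26 (SD, 3 arrays) and a 95% interval from -0.01 to 0.68. The adjusted p from limma was 0.279, the lowest of the clock probes, at a fold of 1.26. The mean lay between 0.25 and 0.49 under 12 alternatives and the adjusted p between 0.0907 and 0.533. The lowest was that with median centring, which called 1885 probes of the array.

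CSNK1E, casein kinase epsilon, a close relative of CSNK1D with the same known role toward PER, gave different readings by its 2 probes. With A_70_P061361 the levels were 14.94, 14.45 and 14.36 in the short photoperiod goats and 14.17, 14.58 and 13.69 in the natural goats. With A_70_P026621 they were 14.30, 13.94 and 13.90 in the short photoperiod goats and 14.25, 14.29 and 13.98 in the natural goats. By the first probe the short photoperiod goat was clearly the higher on replicates 1 and 3 and the lower on replicate 2, whereas by the second the pair was nearly level on replicates 1 and 3 and lower under the short photoperiod on replicate 2. Both probes had overlapping groups.

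The ratio of A_70_P061361 was 0.77, -0.13 and 0.66, with a mean of 0.43 ± 0.50 (SD, 3 arrays), a 95% interval from -0.10 to 0.96 and an adjusted p of 0.333 from limma. It had both the largest mean change and the largest spread of the clock probes. Its mean was 0.26, 0.72 and 0.32 without replicate 1, 2 and 3, and 0.73 with median centring in place of loess. The adjusted p was 0.0635 with median centring, the lowest of 12 alternatives, which reached up to 0.615. Median centring called 1885 probes of the array, in place of 1 with loess. The ratio of A_70_P026621 was 0.05, -0.35 and -0.08, with a mean of -0.13 ± 0.21, an interval from -0.44 to 0.18 and an adjusted p of 0.598. Its mean was -0.22, -0.01 and -0.15 without replicate 1, 2 and 3, and with median centring it turned to 0.10.

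The CSNK1E probes are printed because their readings disagree. They come from different sheep records, EU016224 for A_70_P061361 and AY125978 for A_70_P026621, each a partial coding sequence, and the longest run of bases common to both is 5.
A_70_P061361: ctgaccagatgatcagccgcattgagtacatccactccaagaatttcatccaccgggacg
A_70_P026621: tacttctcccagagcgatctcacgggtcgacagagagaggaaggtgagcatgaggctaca
The ratio of A_70_P026621 was below that of A_70_P061361 on all 3 arrays, by -0.72, -0.22 and -0.74, a mean of -0.56 ± 0.30. This is wider than the gaps of the PER2 and CRY1 pairs, which reached at most 0.09 and 0.17. Whether each probe binds the goat transcript of its own gene only was not tested. The CSNK1D probe also shares a run of at most 5 bases with either CSNK1E probe, as do the probes of unrelated genes such as CLOCK and DBP. Such runs compare probes with each other and do not show which transcripts a probe binds. The ratios of CSNK1D followed the arrays in the manner of A_70_P061361, high on replicates 1 and 3 and near 0 on replicate 2.

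Over the 9 probes, replicate 1 gave the highest of the 3 ratios for 6 probes and replicate 2 the lowest for 6. The CRY1 pair was highest on replicate 2 and lowest on replicate 1, DBP was highest on replicate 3, and PER2 probe A_70_P026807 was lowest on replicate 3. Ratios above 0 were found for 6 of 9 probes on replicate 1, 4 of 9 on replicate 2 and 4 of 9 on replicate 3. The median size of the ratio was 0.24, 0.13 and 0.21 on the respective arrays. The median size of the mean change was 0.13 for the clock probes and 0.16 for all tested probes, and the median SD over arrays was 0.21 and 0.20, so that the clock probes lay close to the array at large in both.

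The 3 named probes whose ratios on the arrays came closest to those of CSNK1E probe A_70_P061361, the clock probe with the largest mean change, were sought among 1396 probes with a gene symbol by the Euclidean distance over the 3 ratios. They were TUBB2A, a beta-tubulin, at a distance of 0.28, the long form of the prolactin receptor (AF041257) at 0.30 and PON3, a paraoxonase, at 0.30. The prolactin receptor, through which the pituitary hormone that follows day length acts, had ratios of 0.66, 0.10 and 0.80, with overlapping groups and an adjusted p of 0.224 from limma. With 3 arrays many probes can come close to a given pattern, and the distances are a description.

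Other genes tied to the clock were taken from a list of 77 symbols, of which 12 had probes, 24 in all. Both channels were well above background on every array for 20 of the 24, and 11 of the 20 had a mean above 0 and 9 below. By limma, an adjusted p under 0.05 was reached by 0 of the 24, beside 0.00668% of all tested probes. An unadjusted p under 0.05 was reached by 4, of which 3 were among the 20, beside 18.5%. The separate channels and eBayes with trend and robust called 0 of the 24 too, beside 161 of 14868 and 0 of 14977 probes of the array. A mean change of 2-fold was reached by 0, beside 0.855% of all tested probes. The same direction on all 3 arrays was found for 11 of the 20, beside 43.6% over the array. The groups did not overlap for 2 of the 20, probes of FOS and CREM, beside 13.6%.

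Among the immediate early genes, which respond within minutes to light or serum in clock cells, FOS had the lowest means of the list. FOS encodes a subunit of the AP-1 transcription factor. Its probe A_70_P001561 had levels of 12.47, 12.92 and 12.23 in the short photoperiod goats and of 13.31, 13.03 and 13.51 in the natural goats. All short photoperiod goats lay below all natural goats by this probe, with the narrowest pair on replicate 2. The ratio was -0.83, -0.11 and -1.28, with a mean of -0.74 ± 0.59 (SD, 3 arrays), a 95% interval from -1.35 to -0.13 and an adjusted p of 0.226 from limma. Leaving out replicate 1, 2 or 3 gave this FOS probe a mean of -0.70, -1.06 or -0.47. The other FOS probes, A_70_P016316 and A_70_P016317, had means of -0.61 and -0.62, with ratios near 0 on replicate 2 and overlapping groups. Their means were -0.93 and -0.93 without replicate 2 and -0.35 and -0.36 without replicate 3.

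Another AP-1 subunit, JUN, had a mean ratio of 0.20, and the 4 probes of EGR1, a zinc finger factor induced by the same stimuli, ranged from -0.06 to 0.34. FOS thus had 3 of 3 means below 0 and EGR1 3 of 4 above 0, and no test of that difference was run. Without replicate 2 the means of EGR1 probes A_70_P059661 and A_70_P059662 were -0.25 and -0.12, and without replicate 1 that of JUN was 0.05. With median centring all 4 EGR1 means were above 0, between 0.07 and 0.28. EGR1 probe A_70_P041731 had the second highest mean of the 20 probes, with ratios of 0.03, 0.52 and 0.46.

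Of the genes for light and melatonin input, CREM had 4 probes with means from -0.31 to 0.08. CREM is a cAMP-responsive factor whose repressor form is rhythmic in the pineal gland. The highest mean, that of A_70_P024297, turned to -0.14 with median centring, and was 0.03 without replicate 1 and 0.17 without replicate 2. Without replicate 2 the means of A_70_P012576 and A_70_P012577 went from -0.16 and -0.11 to -0.09 and -0.01. The CREM probe with the lowest mean, A_70_P024296, had levels of 10.17, 10.34 and 10.39 in the short photoperiod goats and of 10.57, 10.67 and 10.58 in the natural goats. By this probe the groups did not overlap. Its ratio was -0.40, -0.34 and -0.19, with a mean of -0.31 ± 0.11 (SD, 3 arrays) and an adjusted p of 0.228 from limma, and the other CREM probes had overlapping groups. AANAT, the enzyme that sets the rate of melatonin synthesis, had means of 0.05 and -0.03 by its 2 probes, and both changed sign when an array was left out. With median centring the AANAT means were -0.16 and -0.24. The melatonin receptor MTNR1A and ADCYAP1, the neuropeptide PACAP, had 2 probes each that were not well above background on most arrays, with at most 1 array above it in either channel (for MTNR1A an outlier spot that was left out), so their ratios are not given.

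PPARGC1A, a coactivator that raises BMAL1 transcription, had the highest mean of the 20 probes over the 3 arrays, which rested on replicate 1. Its levels were 9.00, 8.29 and 8.71 in the short photoperiod goats and 7.69, 8.01 and 8.67 in the natural goats. The natural goat of replicate 1 was the lowest and its short photoperiod partner the highest of the 6, and the groups overlapped. The ratio was 1.32, 0.28 and 0.03, with a mean of 0.54 ± 0.68 (SD, 3 arrays) and an adjusted p of 0.35 from limma. The mean of PPARGC1A was 0.29 with median centring and without replicate 1 it was 0.16, below those of EGR1 probe A_70_P041731 and ADRB1 over the same arrays, 0.49 and 0.45. BHLHE40, or DEC1, a repressor that competes with CLOCK and BMAL1 for their binding sites, had ratios of 0.59, -0.37 and 0.37, with a mean of 0.20 ± 0.50. Leaving out replicate 1 or 2 took the mean of BHLHE40 to 0.0033 or 0.48.

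Among the remaining genes, PRKAA2, a subunit of the AMP-activated kinase that acts on cryptochromes, had means of 0.06 and -0.28 by its 2 probes, the first turning to -0.12 without replicate 3 and the second going to -0.17 without replicate 2. With median centring the PRKAA2 means were -0.30 and -0.62, and limma called the second at an adjusted p of 0.0402. Its adjusted p was 0.307 with loess and up to 0.748 under the other alternatives. Median centring called 1885 of all 14977 tested probes, in place of 1 with loess. ADRB1, an adrenergic receptor, had a mean of 0.30 and CDKN1A, the cell cycle inhibitor p21, of 0.19. Without replicate 1 these were 0.45 and 0.11. With median centring ADRB1 stood at -0.0019 and CDKN1A at 0.48, the latter with an adjusted p of 0.0515 from limma, against 0.416 with loess and up to 0.739 under the other alternatives.

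Markers of the cell types of skin were set beside the clock probes, as counts of mean ratios above and below 0, with no test of any list. Keratin probes were those whose name or description held keratin, so they include keratin-associated proteins, and KRT14, which is also a keratinocyte marker. Of these, 22 of the 27 well above background had a mean above 0, with a median of 0.65 and array means of 0.63, 0.35 and 1.00. The array means of every list are over the probes with a ratio on that array, which can differ between arrays. The summed intensity of the 22 keratin probes with all 6 levels was 1209300, 1182300 and 1238400 in the short photoperiod goats and 847480, 1118300 and 595470 in the natural goats, the brightest being LOC100526782. Leukocyte markers (CD14, CD3E, FCER1G, ITGAM and LYZ, with LYZ the brightest) had means below 0 for 10 of 10 probes, with a median of -0.37, and the CD4 probes were not well above background. Their summed intensity was 112100, 110140 and 93896 in the short photoperiod goats and 151860, 127050 and 147820 in the natural goats. Fewer cells of a type and less RNA per cell cannot be told apart in such tissue samples. The part of cell composition in the ratios of the clock probes was not tested.

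The 4 probes of the keratinocyte markers KRT5, KRT14 and TP63 were well above background on every array, but only 3 were tested. All 3 tested probes had means above 0, with a median of 0.91. The array means, over those of the 4 probes with a ratio on that array, were 1.31, 0.99 and 0.25. The smallest array mean of the keratinocyte markers was thus on replicate 3, and that of all keratin probes on replicate 2, with KRT14 in both lists. Fibroblast probes had 5 of 7 means below 0 (median -0.24), but array means of -0.50, -0.30 and 0.07. The summed intensity of the 5 fibroblast probes with all 6 levels was 131540, 132020 and 137410 in the short photoperiod goats and 159030, 108090 and 125090 in the natural goats, higher under the short photoperiod on replicates 2 and 3. The 2 melanocyte probes of TYR (median -0.25) and the 3 probes of cycling cells (2 below 0, median -0.13) also changed sign between arrays, with array means of -0.55, -0.74 and 0.52 for TYR and of -0.58, 0.16 and 0.42 for cycling cells. Of the 5 endothelial symbols only SELE had probes, with array means of -1.02, -0.99 and -0.52 (median -0.84, 2 of 2 below 0). These values are of SELE alone, and the amount of endothelium was not tested. The 6 adipose probes, 4 below 0 and 2 above, had a median of -0.37 and array means of -0.31, -0.17 and -0.57. The blood marker HBB, with 2 probes, stood at 0.29 and 1.05 on replicates 1 and 3 and at -2.03 on replicate 2. Its summed intensity was 19905 in the natural goat of replicate 2 and between 1991 and 7535 in the other goats. No skeletal muscle symbol of the list had a probe.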

How the data were processed

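Skin RNA of 3 short photoperiod goats (Cy5) and 3 natural photoperiod goats (Cy3) was measured on 3 Agilent sheep arrays. The deposited scanner files, made by the authors with Agilent Feature Extraction, give every spot a mean intensity and a median local background intensity, both before normalization. A processed intensity, from which the authors' software had subtracted background and removed dye bias, and its log10 ratio were deposited too. Other deposited columns are flags for control, outlier, saturated and well above background spots, which the authors' software set. The value table holds the authors' log2 ratio of the processed signals, Cy5 over Cy3; where no signal was measured it holds a ratio of surrogate values.

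In R 4.3.3 with limma 3.58.1, normexp (offset 50) was run on all spots, controls were left out, and loess was run within arrays. Spots with any of 4 outlier flags were dropped and spots of a probe averaged. The 14977 probes with at least 2 arrays were tested against a ratio of 0 with lmFit and eBayes, adjusted by Benjamini-Hochberg at a threshold of 0.05. The mean ratio was also set against the 2-fold rule of the study's methods. Each array pairs 2 goats, said by the paper to be of the same parent, so the test is paired. The procedure was tested on simulated ratios. All clock probes are named, and of the other pathway genes the 2 highest and 2 lowest means and any probe called; others were named after their values were seen. Members and lists (77 pathway symbols, and markers of keratinocytes, keratins, fibroblasts, endothelium, leukocytes, skeletal muscle, adipose tissue, blood, melanocytes and cycling cells) were chosen with earlier results of these data known. The alternatives were other background corrections, median centring, Feature Extraction's ratio, the authors' table, keeping flagged spots, a filter on dim probes, leaving out each array, eBayes with trend and robust, separate channels (correlation within spots 0.619) and the brightest probe of a gene. Figures were drawn with matplotlib 3.10.9.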

Additional observations from a re-analysis of the deposited data

How the results depend on the processing

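Under each of 12 alternatives for the test, and 11 for the 2-fold rule, the count of clock probes past the threshold was 0, and the mean ratios of CLOCK, CSNK1D, CSNK1E probe A_70_P061361 and the PER2 and CRY1 probes kept their sign. Median centring in place of loess turned the mean of DBP to 0.24 and of CSNK1E probe A_70_P026621 to 0.10 and moved the negative arm to -0.31; among the brightest 25% of probes it put the median ratio at 0.34, against -0.02 with loess, and it called 1885 probes of the array in place of 1. Of the other pathway genes it called 3 probes, of MTNR1A, ADCYAP1 and PRKAA2, against 0 with loess. The 2-fold count of these genes, 0 as processed here, was 1 with Feature Extraction's ratio (ADCYAP1), 3 with the authors' table (ADCYAP1 and both MTNR1A probes), 1 with outlier spots kept (MTNR1A), and 0 to 1 when leaving out each replicate, the 1 being FOS without replicate 2. MTNR1A probe A_70_P051407 was well above background only in the outlier spot of replicate 1, which was left out here. The cause of these changes was not tested. Over all probes, the separate channels called 161 and eBayes with trend and robust 0. The count of 2-fold probes was 128 as processed here, 474 with the authors' table, 371 with median centring, 268 with Feature Extraction's ratio and 200 with normexp without an offset, and 159 to 290 when leaving out each replicate.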
